A study of Homo sapiens with 6 samples.

Results

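The genes described here are 86 chaperones, co-chaperones and heat shock factors, picked by gene symbol out of 26902 rows of expression values. The symbols cover the HSP90, HSP70, HSP110 and small heat shock proteins, the HSP60 and HSP10 pair of mitochondria, the TRiC chaperonin, the J proteins (DNAJA, DNAJB and DNAJC), the BAG proteins, the HSP90 co-chaperones and the factors HSF1, HSF2 and HSF4. The ER genes HSPA5, HSPA13, DNAJB9, DNAJB11, DNAJC3 and DNAJC10 were left out by rule. The members were meant as cytosolic and mitochondrial chaperones, but 7 of the tested J proteins (DNAJB12, DNAJB14, DNAJC1, DNAJC14, DNAJC16, DNAJC18 and DNAJC25) are known to sit in the ER membrane. Values came from 3 libraries of HMCB cells transfected with an siRNA against AHCYL1 (siAHCYL1) and 3 libraries of HMCB cells transfected with the control siRNA (siNC). HMCB is a human melanoma cell line that carries NRAS Q61K, so every library of both groups comes from the same line and mutation, and RNA was taken 3 days after transfection.

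Molecular chaperones bind unfolded or partly folded proteins and keep them from clumping. In the cytosol, J proteins hand clients to HSP70, BAG and HSP110 proteins make HSP70 release its nucleotide and its client, and the adaptor STIP1 passes clients on to HSP90, which matures kinases and steroid receptors. The ring-shaped TRiC complex folds actin and tubulin, and HSPD1 with its lid HSPE1 does a like job in the mitochondrial matrix. When unfolded protein builds up, HSF1 binds heat shock elements and raises transcription of many of these genes. Tumour cells, melanoma included, are known to lean on HSP90 for the stability of growth-signalling kinases.

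The target of the siRNA was low in each siAHCYL1 library. AHCYL1 had 13.45, 11.13 and 10.97 TPM in siAHCYL1 cells, against 150.02, 134.05 and 131.09 TPM in siNC cells (log2 fold change -3.44, SE 0.096, limma adjusted p = 5.64e-08). TPM is a transcript level divided by transcript length and scaled to a fixed total per library, so it keeps no sequencing depth, and the depth here is unknown. Between 13035 and 13189 genes reached 1 TPM in a library. Of 10 melanocyte and melanoma markers, 6 were at 1 TPM or more in all 6 libraries, with SOX10 between 992.99 and 1049.98 TPM, while TYR was listed at 0 in all 6 and MLANA stayed under 1 TPM. Of the 8 melanocyte markers tested, 2 fell and 4 rose. DCT, an enzyme of melanin synthesis, fell to 0.24, 0.15 and 0.62 TPM in siAHCYL1, against 10.79, 11.49 and 11.95 TPM in siNC, and PAX3 fell to 72.7% of its siNC mean. S100B stood at 270% of its siNC mean, TYRP1 at 237%, PMEL at 208% and S100A1 at 148%, all higher. The 10 markers summed to between 1215 and 1274 TPM in siAHCYL1 and between 1194 and 1229 TPM in siNC, sums made up mostly of SOX10. Of 12 markers of other cell types, 7 were under 1 TPM in every library. They summed to between 37.39 and 49.71 TPM in siAHCYL1 and between 33.47 and 44.07 TPM in siNC, and KRT5, CD3E, VWF and HBB were among those at 0 throughout. All 4 that were tested changed, with LUM at 207% and PTPRC at 248% of their siNC means, higher, and HBA1 at 35.2% and COL1A1 at 22.6%, lower. Of all genes tested 21.2% were lower and 30.4% higher. DCT and COL1A1 reached 1 TPM, the level required for testing, only in siNC, and PMEL reached it mainly in siAHCYL1. For DCT, COL1A1 and PMEL a difference was thus a condition of being tested. The part of these marker changes in the chaperone values was not tested.

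Chaperone transcripts took up less of the RNA after the AHCYL1 siRNA. Summed over the 86 genes, they held 1.37%, 1.26% and 1.26% of all TPM in siAHCYL1 cells, against 1.89%, 1.73% and 1.64% in siNC cells, and the groups did not overlap. The sum averaged 12972 ± 620 TPM in siAHCYL1 and 17543 ± 1217 TPM in siNC (SD, n = 3 each), or 73.9% of the siNC level. HSP90AB1 alone made up a large share of that gap. Without it the sum was 12185 ± 534 TPM in siAHCYL1 and 14602 ± 918 TPM in siNC, or 83.4%. In bulk RNA, fewer cells with a transcript and less of it per cell cannot be told apart, and TPM shows a share of the RNA, not an amount per cell.

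Of the 86 members, 74 reached 1 TPM in at least 3 libraries and were tested. A gene was counted as changed at a limma adjusted p under 0.05. By that rule 29 members fell, 12 rose and 33 did not pass, that is 39.2% lower and 16.2% higher. Over all 13266 genes tested, 51.6% changed, 21.2% lower and 30.4% higher, and 55.4% of the members changed. So the members changed about as often as genes in general, and their calls lay more on the lower side. Higher calls made up 58.9% of all calls as fitted, 50.2% after median-of-ratios scaling and 48.1% after quantile normalization, which moved the median of all genes by -0.063 and -0.078. The median log2 fold change was -0.16 over the members tested and 0.06 over all genes tested. The groups did not overlap in 44 members (59.5%) and in 59.2% of all genes. Among the members, HSP90AB1, HSPA6 and HSPA14 were lower by 2-fold or more, and HSF4, HSPB9 and DNAJC4 higher. The share of all genes with changes of that size was not counted. HSPA6 and HSPB9 passed the filter on low values only through the group in which they are higher, so a difference was a condition of their test. Over the other 72 members 28 fell and 11 rose. The 12 members not tested, among them the HSP70 gene HSPA1L, the small heat shock protein genes HSPB2, HSPB6, HSPB7 and HSPB8 and the chaperonin paralog CCT6B, reached at most 0.82 TPM in any library, and DNAJB3 and HSPB8 were listed at 0 in all 6.

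**Figure D1:**
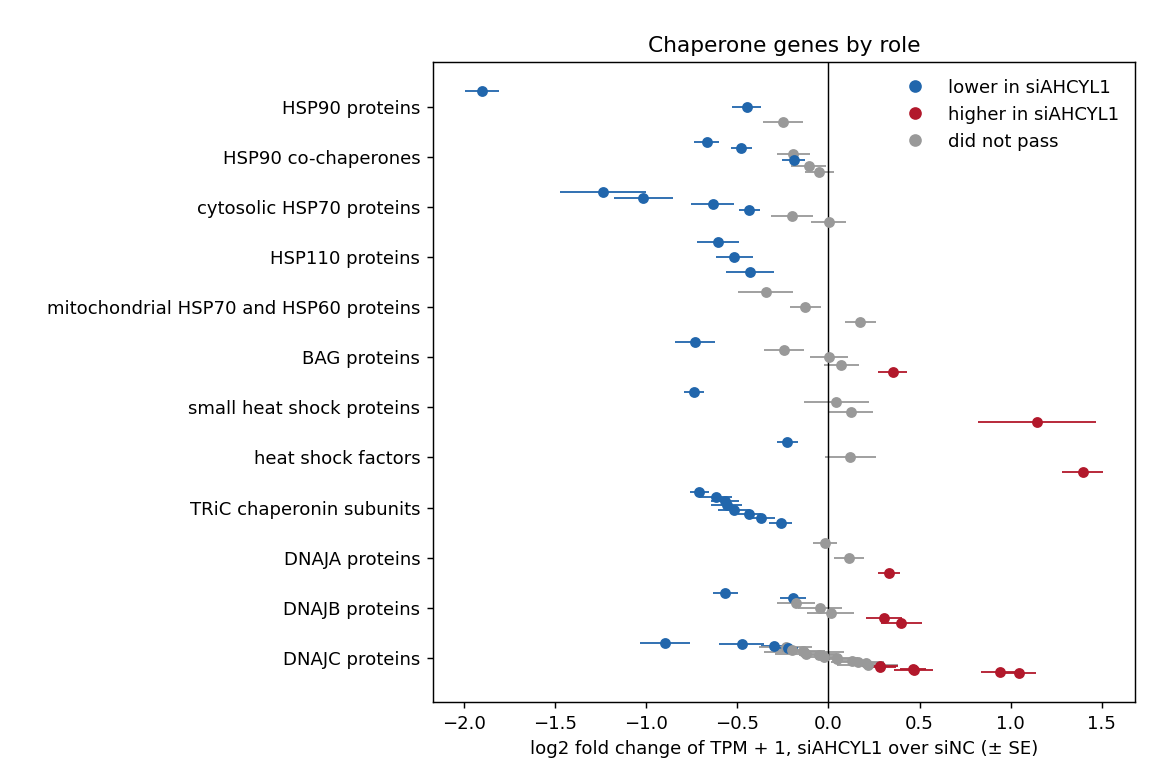
Log2 fold change of TPM + 1, siAHCYL1 over siNC, for each of the 74 chaperone genes tested, with its standard error, one row per role group and coloured by the limma call. All 8 TRiC subunits and all 3 HSP110 genes lie left of 0 and were called lower, as were 21.2% of all genes tested. Of the 12 genes that rose, 9 are among the 33 J proteins tested. That is 27.3% of the J proteins, near the 30.4% of all genes tested that rose.

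Most of the falls were in the abundant members. Of the 30 members that averaged at least 100 TPM over the 6 libraries, 20 fell and 0 rose, with a median log2 fold change of -0.36. Among all 1895 genes at that level, 28.2% fell and 32.7% rose, with a median of 0.01. Of the 44 tested members under 100 TPM, 9 fell and 12 rose, where 20.1% of all 11371 such genes fell and 30.0% rose. The line of 100 TPM was drawn after the values were seen, so this is a description without a test. DNAJB6, at 109.6 TPM, was the member just above it and DNAJA3, at 97.34 TPM, the one just below.

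**Figure D2:**
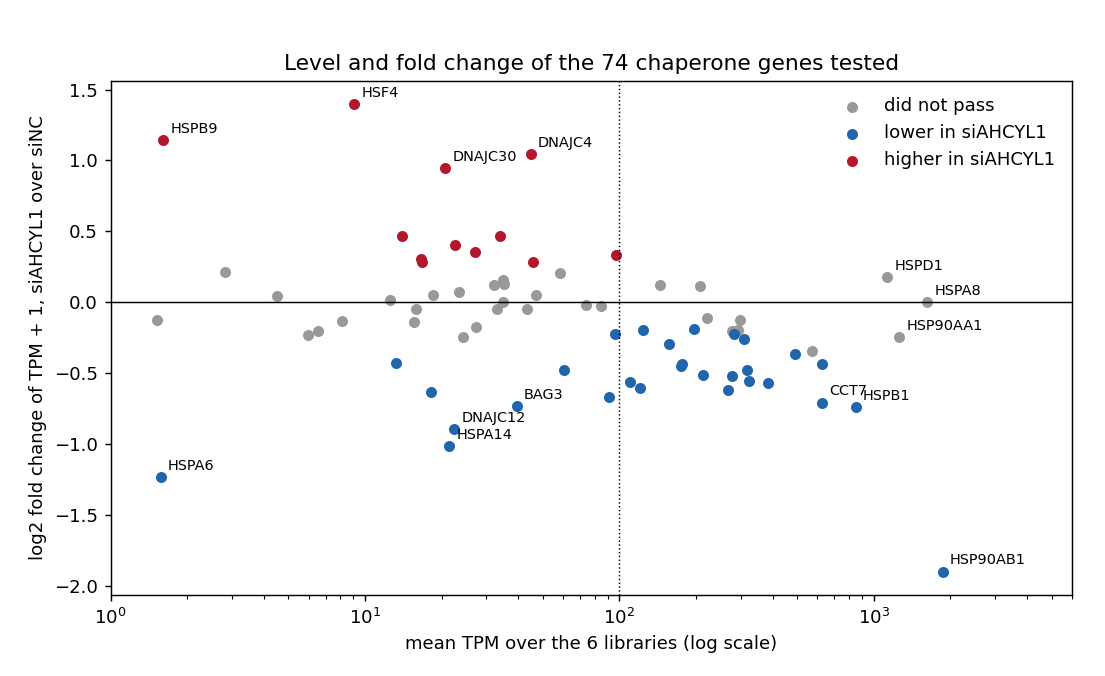
Mean TPM over the 6 libraries (log scale) against log2 fold change of TPM + 1, siAHCYL1 over siNC, for the 74 chaperone genes tested, coloured by the limma call, with a dotted line at 100 TPM. Right of the line 20 genes are lower and 0 higher, and HSP90AB1 lies far below all others.

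The HSP90 genes split. HSP90AB1 encodes HSP90 beta, the constitutive cytosolic form, at chromosome 6, positions 44246166 to 44253888 of GRCh38. It had 887.08, 733.08 and 741.10 TPM in siAHCYL1 cells, against 3253.29, 2914.84 and 2653.34 TPM in siNC cells. Every siAHCYL1 library lay far below the lowest siNC library, and the mean fell to 26.8% (log2 fold change -1.90, SE 0.095, adjusted p = 1.01e-06). HSP90AA1 encodes HSP90 alpha, the more inducible form. Its values were 1322.10, 1078.62 and 1049.61 TPM in siAHCYL1 and 1564.62, 1340.16 and 1199.15 TPM in siNC, so the groups overlapped. It did not pass (-0.25, 95% interval -0.50 to 0.003, adjusted p = 0.0903), but passed without siNC replicate 3 (-0.34, adjusted p = 0.0315), without siAHCYL1 replicate 1 (-0.35, adjusted p = 0.0195), with both replicate 1 libraries left out (-0.25, adjusted p = 0.00764) and under median-of-ratios scaling (-0.32, adjusted p = 0.0212).

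The order of the pair was turned round. HSP90AB1 stood at 0.671, 0.680 and 0.706 times HSP90AA1 in the siAHCYL1 libraries, and at 2.079, 2.175 and 2.213 times HSP90AA1 in the siNC libraries (exact permutation p = 0.1, two-sided, the smallest that 3 against 3 allows). The large fall of HSP90AB1 already separates the groups, so the test of this ratio adds no evidence of its own. Within a library this ratio varied far less than either gene, with an SD of 0.018 in siAHCYL1 and 0.069 in siNC. HSP90AB1 was the most abundant member in all siNC libraries, ahead of HSPA8. In each siAHCYL1 library it stood below HSPA8, HSP90AA1 and HSPD1. Together the pair summed to 1937 ± 236 TPM in siAHCYL1 and 4308 ± 485 TPM in siNC. The mitochondrial HSP90, TRAP1, fell more mildly, with 164.84, 136.06 and 141.17 TPM in siAHCYL1 against 208.17, 198.96 and 195.06 TPM in siNC (-0.45, SE 0.079, adjusted p = 0.00131).

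**Figure D3:**
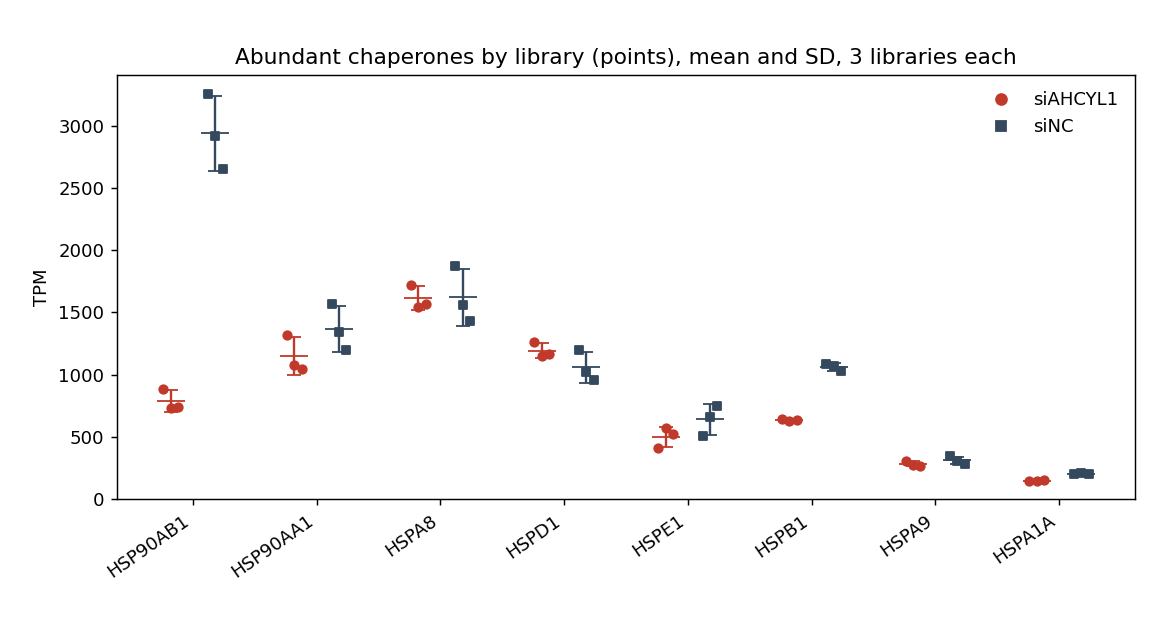
TPM of 8 chaperone genes in each library (points) with mean and SD over 3 libraries, siAHCYL1 left of siNC for each gene. HSP90AB1 drops below HSP90AA1, HSPA8 and HSPD1 in siAHCYL1 cells, and the HSPA8 groups overlap.

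Short sequences in and around these genes were looked at, starting with the promoters of 4 abundant members that behaved differently. Printed are RefSeq windows of GRCh38.p14 from 250 bases before to 50 bases after an annotated start, for HSP90AB1, HSP90AA1, HSPA8 and HSPD1. Capitals mark 3 alternating units of the heat shock element, searched as GAA-NN-TTC-NN-GAA and, for the other strand, TTC-NN-GAA-NN-TTC, where N is any base and overlapping matches are joined. HSP90AB1 has 3 windows, HSP90AA1 has 2 and HSPD1 has 2, and only the one that holds a match is shown for each. The other windows of these genes hold 0 matches. All 4 windows shown lie inside the annotated span of their gene, and that of HSP90AB1 is the furthest downstream of its 3.
HSP90AB1 promoter, chr6:44247693-44247992, plus strand: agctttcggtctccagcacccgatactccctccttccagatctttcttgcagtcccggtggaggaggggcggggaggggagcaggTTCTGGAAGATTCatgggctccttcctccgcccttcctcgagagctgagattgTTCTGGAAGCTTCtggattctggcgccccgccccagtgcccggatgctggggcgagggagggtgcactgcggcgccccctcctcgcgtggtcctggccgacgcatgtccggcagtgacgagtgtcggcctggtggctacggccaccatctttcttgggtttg
HSP90AA1 promoter, chr14:102086995-102087294, minus strand: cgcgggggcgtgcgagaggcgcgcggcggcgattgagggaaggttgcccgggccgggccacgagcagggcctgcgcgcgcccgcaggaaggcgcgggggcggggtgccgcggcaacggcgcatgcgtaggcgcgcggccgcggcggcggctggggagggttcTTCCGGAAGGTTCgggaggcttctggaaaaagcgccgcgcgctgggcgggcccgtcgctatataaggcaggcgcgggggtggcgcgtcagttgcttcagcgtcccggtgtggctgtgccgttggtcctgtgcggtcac
HSPA8 promoter, chr11:123062087-123062386, minus strand: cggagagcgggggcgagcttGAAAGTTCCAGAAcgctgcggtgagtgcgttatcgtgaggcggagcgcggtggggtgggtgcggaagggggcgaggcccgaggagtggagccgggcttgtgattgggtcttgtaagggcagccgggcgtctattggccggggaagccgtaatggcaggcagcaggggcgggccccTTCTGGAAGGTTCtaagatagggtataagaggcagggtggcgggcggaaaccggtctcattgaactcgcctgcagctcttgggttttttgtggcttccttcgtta
HSPD1 promoter, chr2:197499791-197500090, minus strand: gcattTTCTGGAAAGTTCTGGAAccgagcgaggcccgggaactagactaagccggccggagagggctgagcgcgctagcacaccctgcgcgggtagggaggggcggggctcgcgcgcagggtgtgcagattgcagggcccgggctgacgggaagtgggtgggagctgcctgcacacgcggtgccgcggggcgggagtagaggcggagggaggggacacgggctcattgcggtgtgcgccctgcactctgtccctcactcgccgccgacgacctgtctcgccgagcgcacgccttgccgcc
These letters occurred in 0.490% of all 35116 promoter windows. Of 86 members, 73 had a window, and 7 of their 100 windows held the motif, those of HSP90AB1, HSP90AA1, HSPA8, HSPD1, HSPA6, DNAJB6 and DNAJA1. Of these 7 genes, 3 fell (HSP90AB1, HSPA6 and DNAJB6), 0 rose and 4 did not pass. HSPA6 passed the filter on low values only through siNC, so a difference was a condition of its test. The shorter GAA-NN-TTC and TTC-NN-GAA, both contained in the longer motif, each read the same on both strands and were searched together. Either was in 13.5% of all windows and in 28 of the members' 100. Such matches were found for 27 members, of which 21 were tested, and of those 11 fell, HSPA6 among them, and 0 rose. Of the 74 members tested 39.2% fell and 16.2% rose, and of all genes tested 21.2% fell and 30.4% rose. A link between motif and direction was not tested. A match is a run of letters and shows no binding.

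The 7-mer GTATGCA was looked up in 3′ UTRs because earlier results of these data tie it to lower fold changes, so its count here is a description. In GENCODE 29 transcripts, 1 per gene, 73 tested members had a 3′ UTR to search and 5 carried it. Of these, HSP90AB1, BAG3 and DNAJB6 fell, DNAJB14 rose and DNAJC17 did not pass. Of the 68 members without it, 26 fell (38.2%) and 10 rose. Among all 936 tested genes with the 7-mer 39.6% fell, and among the 255 with GTATGCAA 49.4% fell, beside 22.5% of the 11860 genes searched. The shares that rose were 20.2%, 14.1% and 30.2% in that order. These sets were not matched for 3′ UTR length, and a longer stretch has more room for a match. HSP90AB1 and DNAJB14 carried the longer form and moved in opposite directions. The same longer form lies in the coding sequence of AHCYL1 itself. The sequence of the siRNA is not given in the sources used here, and the part of such matches in these changes was not tested. DNAJB14, which rose, also has GTATGCA without the further A in its coding sequence, which is not printed. The 3′ UTR matches and that of AHCYL1 are shown with the 7-mer in capitals, as the transcript reads, on GRCh38.
AHCYL1 coding sequence, chr1:110018419-110018445, plus strand: cagttgtatcGTATGCAatatgggcca
HSP90AB1 3′ UTR, chr6:44253840-44253866, plus strand: tgaaattaaaGTATGCAaaataaagaa
DNAJB14 3′ UTR, chr4:99898916-99898942, minus strand: cacatatgaaGTATGCAagtaaagatt
BAG3 3′ UTR, chr10:119677379-119677405, plus strand: tagctgcttgGTATGCAgtaacttggg
DNAJB6 3′ UTR, chr7:157385867-157385893, plus strand: gtaaatctctGTATGCActttgctttt
DNAJC17 3′ UTR, chr15:40765186-40765212, minus strand: agaatttatgGTATGCAcattacatat

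Co-chaperones of HSP90 fell in part, with 3 of 6 lower and 0 higher, where 21.2% of all genes tested fell and 30.4% rose. FKBP4, an immunophilin of steroid receptor complexes, had 68.18, 70.12 and 72.49 TPM in siAHCYL1 against 118.48, 104.68 and 113.77 TPM in siNC (log2 fold change -0.67, SE 0.069, adjusted p = 5.74e-05). STIP1, the adaptor between HSP70 and HSP90, had 275.11, 257.24 and 259.29 TPM in siAHCYL1 against 379.93, 369.48 and 354.44 TPM in siNC (-0.48, SE 0.058, adjusted p = 0.000145). Both genes kept the groups well apart. AHSA1, which stimulates the HSP90 ATPase, was lower by a small margin, with 178.23, 188.82 and 180.89 TPM in siAHCYL1 against 206.27, 220.55 and 199.30 TPM in siNC (-0.19, adjusted p = 0.0281). That call was lost when siNC replicate 2 (adjusted p = 0.132) or any siAHCYL1 library was left out (adjusted p from 0.0538 to 0.0782).

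The other HSP90 co-chaperones did not pass. FKBP5, a close relative of FKBP4 that glucocorticoids induce, had 31.13, 33.01 and 33.43 TPM in siAHCYL1 and 35.14, 34.28 and 31.74 TPM in siNC (-0.05, 95% interval -0.23 to 0.13). CDC37, which brings kinases to HSP90, had 235.12, 290.37 and 293.49 TPM in siAHCYL1 and 290.77, 321.76 and 321.14 TPM in siNC (-0.19, adjusted p = 0.102). It was lower without replicate 1 of both groups (-0.14, adjusted p = 0.0367). ST13, the HSP70-interacting protein HIP, had 242.74, 202.09 and 193.21 TPM in siAHCYL1 and 249.32, 225.09 and 212.15 TPM in siNC (-0.11, adjusted p = 0.363). GENCODE 29 names 16 pseudogenes after ST13, so its reads may be shared with copies.

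Among the cytosolic HSP70 genes 4 of 6 tested fell, or 3 of 5 without HSPA6, while the abundant constitutive form did not pass. Of all genes tested 21.2% fell. HSPA8, the constitutive HSC70, had 1723.30, 1546.83 and 1571.52 TPM in siAHCYL1 and 1873.91, 1563.30 and 1427.79 TPM in siNC. The groups overlapped fully, and the 95% interval of the log2 fold change ran from -0.22 to 0.22 (0.0007, adjusted p = 0.996). The ratio of HSPA8 to HSP90AB1 was 1.943, 2.110 and 2.121 in siAHCYL1 and 0.576, 0.536 and 0.538 in siNC. This ratio is a description without a test, since HSP90AB1 had the largest fall of the members tested. HSPA8 has 17 pseudogenes named after it. HSPA1A, a heat-inducible HSP70, was lower in every siAHCYL1 library, with 148.71, 144.46 and 156.49 TPM against 200.62, 209.13 and 198.51 TPM in siNC (-0.43, SE 0.060, adjusted p = 0.000304). HSPA1B, its near-identical copy, was not analysed here, and reads of the copies could be split between them.

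HSPA14, which with the J protein DNAJC2 forms the ribosome-associated complex that meets nascent chains, fell to 48.3%. It had 16.05, 10.32 and 15.63 TPM in siAHCYL1, against 31.01, 25.15 and 30.77 TPM in siNC (-1.02, SE 0.16, adjusted p = 0.000702). DNAJC2 had 60.01, 45.26 and 46.38 TPM in siAHCYL1, against 78.28, 71.68 and 61.42 TPM in siNC (-0.48, SE 0.12, adjusted p = 0.0101). Both partners were thus lower without overlap between groups, a separation seen in 59.2% of all genes tested. Exons of CDNF overlap HSPA14, and exons of PMPCB overlap DNAJC2, each on the opposite strand, and these unstranded libraries cannot tell such reads apart. HSPA12A, a distant HSP70 relative, also fell, with 16.56, 12.87 and 12.77 TPM in siAHCYL1 against 22.47, 23.83 and 20.57 TPM in siNC (-0.64, adjusted p = 0.00176). HSPA6, an HSP70 that in human cells is made mainly under strong stress, was near the detection filter, at 0.12, 1.10 and 0.49 TPM in siAHCYL1 and 2.72, 2.39 and 2.64 TPM in siNC. It passed the filter through siNC, so its difference is given as values only. HSPA2 did not pass (-0.20, adjusted p = 0.179).

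All 3 HSP110 genes, whose proteins are nucleotide exchange factors of HSP70 and help dissolve aggregates, fell without overlap. Of all genes tested 21.2% fell, and the groups did not overlap in 59.2%. HSPA4 had 191.79, 165.94 and 165.32 TPM in siAHCYL1 against 287.16, 242.70 and 221.80 TPM in siNC (log2 fold change -0.52, SE 0.10, adjusted p = 0.00221). HSPH1 had 110.44, 87.17 and 88.49 TPM in siAHCYL1 against 166.15, 142.17 and 128.87 TPM in siNC (-0.61, SE 0.11, adjusted p = 0.0019). In both genes replicate 1 was the highest library of its own group. HSPA4L, the low member of the family, had 13.31, 10.94 and 9.32 TPM in siAHCYL1 against 16.13, 15.51 and 14.30 TPM in siNC (-0.43, adjusted p = 0.0203). Its call was lost with siNC replicate 1 or 2 or siAHCYL1 replicate 2 or 3 left out, with adjusted p = 0.0568, 0.0612, 0.0538 and 0.0692 in that order. Summed, the family stood at 281 ± 30.0 TPM in siAHCYL1 and 412 ± 53.1 TPM in siNC.

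Of 5 tested genes of the BAG family, the other exchange factors, 1 fell and 1 rose. That is 20.0% each way, beside 21.2% lower and 30.4% higher of all genes tested. BAG3, a stress-inducible HSF1 target that links HSP70 to small heat shock proteins and to autophagy, had 30.11, 26.19 and 31.74 TPM in siAHCYL1 against 53.70, 52.40 and 42.34 TPM in siNC (-0.73, SE 0.11, adjusted p = 0.000536). BAG1, which couples HSP70 to the proteasome, rose, with 28.73, 32.20 and 30.36 TPM in siAHCYL1 against 23.38, 23.54 and 23.85 TPM in siNC (0.35, SE 0.080, adjusted p = 0.00509). BAG2, BAG4 and BAG5 did not pass, with log2 fold changes of 0.07, -0.25 and 0.004. BAG4 was lower with siAHCYL1 replicate 1 left out (-0.32, adjusted p = 0.0408).

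TRiC is the cytosolic chaperonin built from 8 different subunits in each ring. All 8 tested subunits fell, none overlapped between groups, and all 8 calls held in each of 14 refits. Among all genes tested 21.2% fell and 59.2% did not overlap between groups. The log2 fold changes of the subunits ran from -0.71 to -0.26 with a median of -0.54. CCT7 was the most affected and the most abundant in control cells, with 478.77, 469.71 and 473.85 TPM in siAHCYL1 against 768.61, 795.78 and 762.96 TPM in siNC (-0.71, SE 0.052, adjusted p = 7.51e-06). CCT8, the scarcest subunit, had 235.45, 204.80 and 190.49 TPM in siAHCYL1 against 353.53, 322.29 and 293.95 TPM in siNC (-0.62, SE 0.093, adjusted p = 0.000501). CCT2 had 317.17, 304.93 and 305.42 TPM in siAHCYL1 against 512.39, 445.15 and 423.10 TPM in siNC (-0.57, SE 0.075, adjusted p = 0.000239). These and CCT5 (-0.56) lost the most, followed by TCP1, CCT3, CCT6A and CCT4.

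TCP1, the alpha subunit that gave the complex its name, had 250.67, 223.43 and 206.68 TPM in siAHCYL1 against 356.65, 316.38 and 302.16 TPM in siNC (-0.52, SE 0.087, adjusted p = 0.00101). CCT3 and CCT6A stood at 73.9% and 77.3% of their siNC means. CCT4 changed least, to 83.3%, with 294.45, 275.79 and 274.12 TPM in siAHCYL1 against 355.42, 325.36 and 333.19 TPM in siNC (-0.26, SE 0.061, adjusted p = 0.00572). CCT7 stood at 1.626, 1.703 and 1.729 times CCT4 in siAHCYL1 and at 2.163, 2.446 and 2.290 times CCT4 in siNC, a description without a test, since this pair was taken because its members changed most and least. The order of subunit levels was nearly kept, with CCT3 first and CCT7 second in siAHCYL1, CCT7 first and CCT3 second in siNC, and CCT4 and CCT5 trading the fifth and sixth place. The spread over the 8 subunits was like in size, with a coefficient of variation of 35.8% ± 2.11 in siAHCYL1 and 37.5% ± 2.75 in siNC (SD, n = 3 each). Together the subunits summed to 2880.9, 2660.1 and 2629.7 TPM in siAHCYL1 and 4127.0, 3849.0 and 3668.5 TPM in siNC, 70.2% of the siNC level. Replicate 1 was the highest library for 8 of 8 subunits in siAHCYL1 and for 7 of 8 in siNC, and for 58.0% and 44.9% of all genes tested in those groups.

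**Figure D4:**
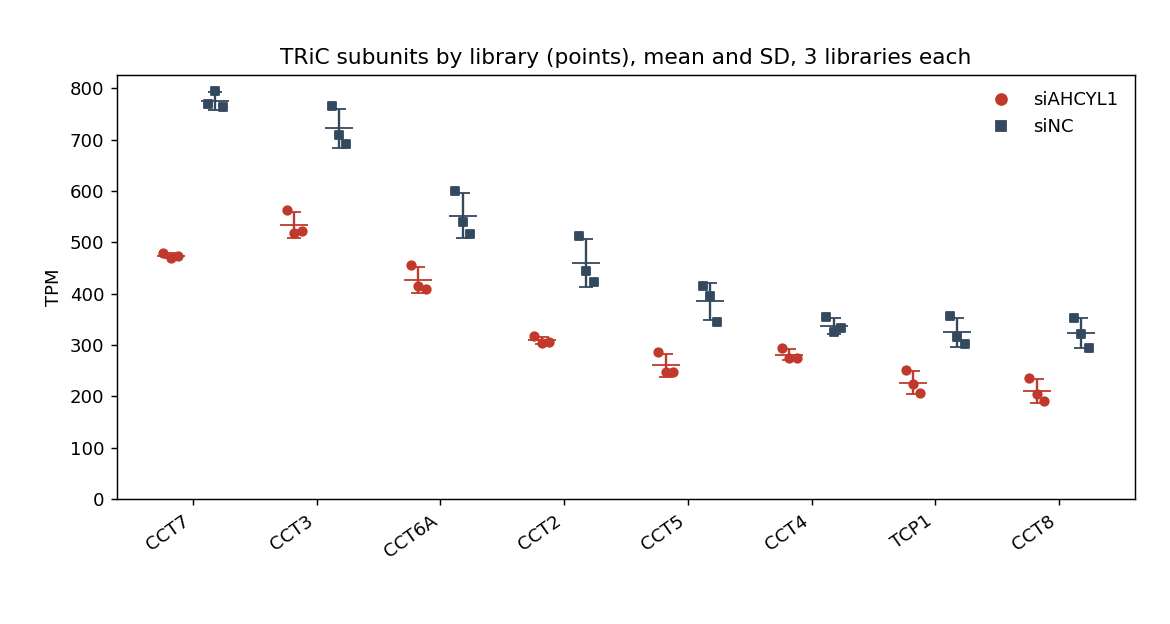
TPM of the 8 tested TRiC subunits in each library (points) with mean and SD over 3 libraries, siAHCYL1 left of siNC, ordered by the siNC mean. Each subunit is lower in all 3 siAHCYL1 libraries than in any siNC library, from CCT7 at 61.1% of its siNC mean to CCT4 at 83.3%.

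Of the matrix chaperones HSPD1, HSPE1 and HSPA9, 0 passed as fitted, while some refits called them, and the mitochondrial TRAP1 (lower) and DNAJA3 (higher) did pass. HSPD1, the matrix HSP60, had 1265.27, 1149.45 and 1165.66 TPM in siAHCYL1 and 1200.48, 1024.43 and 957.24 TPM in siNC (log2 fold change 0.18, SE 0.086, adjusted p = 0.114). HSPE1, its HSP10 lid, had 413.21, 569.44 and 526.68 TPM in siAHCYL1 and 507.75, 664.14 and 751.54 TPM in siNC (-0.34, SE 0.15, adjusted p = 0.0843). HSPA9, the matrix HSP70 mortalin, had 309.90, 273.69 and 270.53 TPM in siAHCYL1 and 344.01, 304.41 and 285.17 TPM in siNC (-0.13, SE 0.084, adjusted p = 0.234). Replicate 1 was the highest library of both groups for HSPD1 and HSPA9 and the lowest of both for HSPE1.

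HSPD1 and HSPE1 lie head to head on chromosome 2 and had estimates of opposite sign. Without siNC replicate 1 both passed, HSPD1 higher (0.27, adjusted p = 0.0107) and HSPE1 lower (-0.50, adjusted p = 0.00982). With both replicate 1 libraries left out, HSPD1 (0.22, adjusted p = 0.00552) and HSPE1 (-0.37, adjusted p = 0.00264) passed as well, and so did HSPE1 without siAHCYL1 replicate 2 (adjusted p = 0.0491). The ratio of HSPE1 to HSPD1 was 0.327, 0.495 and 0.452 in siAHCYL1 and 0.423, 0.648 and 0.785 in siNC, so the groups overlapped (exact permutation p = 0.3). Annotated exons of the genes overlap on opposite strands, the readthrough gene HSPE1-MOB4 overlaps HSPE1, and 17 pseudogenes are named after HSPD1 and 26 after HSPE1, which makes their single values less certain.

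Of the small heat shock proteins, holdases that need no ATP, HSPB1 was the most abundant. HSPB1, HSP27, had 647.04, 627.85 and 632.25 TPM in siAHCYL1, against 1089.13, 1069.23 and 1026.18 TPM in siNC. Its replicates lay close together and the mean fell to 59.9% (log2 fold change -0.74, SE 0.053, adjusted p = 7.06e-06). HSPB11, known as the intraflagellar transport protein IFT25 rather than as a chaperone, had 150 ± 9.89 TPM in siAHCYL1 and 139 ± 25.3 TPM in siNC and did not pass (0.12, adjusted p = 0.431). HSPB9 was close to the filter, at 2.50, 1.60 and 3.59 TPM in siAHCYL1 and 1.36, 0.00 and 0.64 TPM in siNC. It passed the filter through siAHCYL1, so its difference is given as values only. Its call, which was lost without siAHCYL1 replicate 3, is counted among the rises though a difference was a condition of its test. HSPB3 did not pass (0.04).

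The heat shock factors differed from each other. HSF1, the main driver of the heat shock response, was slightly lower, with 261.36, 248.05 and 268.97 TPM in siAHCYL1 against 308.85, 300.16 and 301.56 TPM in siNC (log2 fold change -0.23, SE 0.057, adjusted p = 0.00856). Its call was lost without siAHCYL1 replicate 2 (-0.19, adjusted p = 0.0543), and exons of DGAT1 overlap it on the other strand. HSF2, which can pair with HSF1, had 39.88, 31.45 and 29.70 TPM in siAHCYL1 and 36.50, 26.60 and 29.62 TPM in siNC (0.12, adjusted p = 0.493). HSF4, best known for its role in the lens, rose to 14.36, 12.53 and 14.01 TPM in siAHCYL1, against 4.50, 4.33 and 4.85 TPM in siNC (1.40, SE 0.11, adjusted p = 1.25e-05). That is 2.99-fold higher, from a low level. Exons of AC074143.1 overlap HSF4 on the same strand, so part of its reads could belong to that gene.

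HSBP1, whose protein binds HSF1 and restrains it, is outside the rule but belongs beside these factors. It had 53.27, 49.23 and 44.73 TPM in siAHCYL1, against 201.59, 212.95 and 211.41 TPM in siNC (-2.07, SE 0.076, adjusted p = 2.67e-07). The groups stood 4.25-fold apart. Its 3′ UTR carries GTATGCA, in an annotated stretch of 8319 bases. Of 6 genes with that 7-mer in the lists outside the rule, HSBP1, FLCN, TBCEL and UBQLN1 fell, NUDCD2, which has the longer GTATGCAA, rose, and CLPB did not pass. Of 16 tested HSF1 partners and further targets listed outside the rule, 6 fell (37.5%) and 5 rose (31.2%), with a median log2 fold change of 0.11, where 21.2% of all genes fell and 30.4% rose. After HSBP1 the strongest calls were SERPINH1, the collagen chaperone of the ER (1.39), and the immediate early gene IER2 (0.76), both higher.

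**Figure D5:**
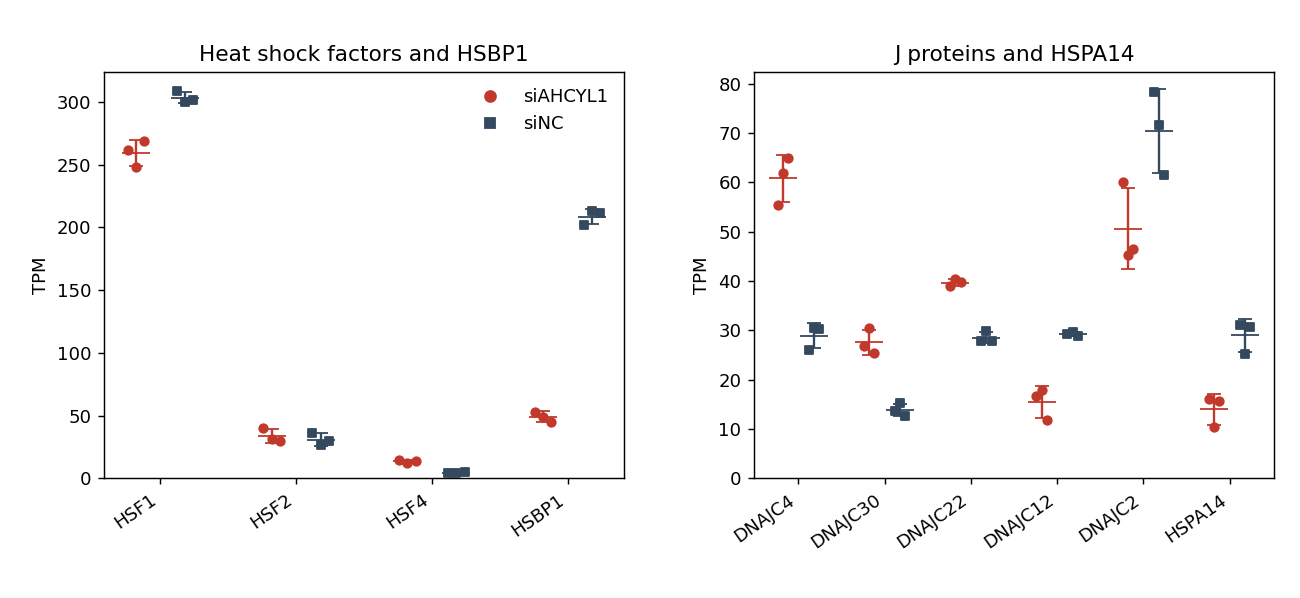
TPM in each library (points) with mean and SD over 3 libraries, siAHCYL1 left of siNC, for the heat shock factors with HSBP1 (left panel) and for 5 J proteins with HSPA14 (right panel). HSF4, DNAJC4, DNAJC30 and DNAJC22 are higher in siAHCYL1, and HSF1, HSBP1, DNAJC12, DNAJC2 and HSPA14 are lower.

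J proteins choose clients for HSP70 and trigger its ATPase. Of the 33 tested, 9 rose (27.3%) and 6 fell (18.2%), near the 30.4% and 21.2% of all genes. Of 3 tested DNAJA genes 1 rose, of 7 DNAJB genes 2 rose and 2 fell, and of 23 DNAJC genes 6 rose and 4 fell. DNAJA3, the mitochondrial J protein TID1, had 111.81, 106.21 and 107.95 TPM in siAHCYL1 against 84.26, 88.00 and 85.83 TPM in siNC (0.33, SE 0.060, adjusted p = 0.0015). DNAJA1, the abundant cytosolic partner of HSPA8, had 235.80, 203.02 and 206.17 TPM in siAHCYL1 and 218.16, 191.65 and 186.19 TPM in siNC (0.11, 95% interval -0.07 to 0.30). DNAJA2 did not pass (-0.02).

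DNAJB6, which holds back aggregation of polyglutamine proteins, fell in every siAHCYL1 library, with 90.56, 87.58 and 86.33 TPM against 139.98, 125.32 and 127.80 TPM in siNC (-0.57, SE 0.066, adjusted p = 0.000116). DNAJB1, the HSP40 of the heat shock response, was close to the threshold, with 120.57, 117.12 and 108.64 TPM in siAHCYL1 against 141.27, 132.65 and 123.19 TPM in siNC (-0.19, adjusted p = 0.0486). Its call was lost in 7 of 14 refits, with adjusted p = 0.14 without siNC replicate 1, 0.124 without siNC replicate 2, 0.1 without siAHCYL1 replicate 2 and 0.162 without siAHCYL1 replicate 3. DNAJB14 rose, with 27.57, 25.70 and 24.33 TPM in siAHCYL1 against 21.56, 20.59 and 16.24 TPM in siNC (0.40, adjusted p = 0.0163). DNAJB2 (-0.05), DNAJB4 (-0.18) and DNAJB5 (0.01) did not pass. DNAJB12 rose by less than DNAJB14, with 18.94, 16.63 and 19.88 TPM in siAHCYL1 against 15.56, 14.17 and 14.54 TPM in siNC (0.30, adjusted p = 0.0288).

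Grouped by place in the cell after the values were seen, the 7 ER membrane J proteins had 4 that rose (DNAJB12, DNAJB14, DNAJC14 and DNAJC16), 0 that fell and a median log2 fold change of 0.28. The share that rose in this small group was 57.1%, beside 27.3% of all J proteins tested and 30.4% of all genes tested. Of all genes tested 21.2% fell. DNAJB14 rose in all 14 refits. The other calls were less firm: DNAJB12 was lost without siNC replicate 2 or 3 or siAHCYL1 replicate 1 or 3 (adjusted p from 0.0545 to 0.103), DNAJC14 without replicate 2 of either group (adjusted p = 0.0641 and 0.0908), and DNAJC16 without any single library (adjusted p from 0.0505 to 0.096). Among 5 mitochondrial J proteins, DNAJA3 and DNAJC30 rose (40.0%), DNAJC11 fell (20.0%) and DNAJC15 and DNAJC19 did not pass. DNAJC11 was lost without siAHCYL1 replicate 2 (adjusted p = 0.0541), and DNAJC19 passed without siAHCYL1 replicate 3 (0.29, adjusted p = 0.0163). Of the 6 ER luminal or ER-bound genes left out by the rule, DNAJB11 fell (-0.49, adjusted p = 0.00023) and DNAJC3 rose (0.33, adjusted p = 0.0401). HSPA5, the luminal HSP70 known as BiP, had 845 ± 37.8 TPM in siAHCYL1 and 754 ± 42.5 TPM in siNC (0.16, adjusted p = 0.0547).

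The DNAJC genes, a mixed class that share little beyond the J domain, had the widest spread. DNAJC4 doubled, with 55.46, 61.93 and 64.91 TPM in siAHCYL1 against 25.95, 30.52 and 30.35 TPM in siNC (1.05, SE 0.093, adjusted p = 2.33e-05). DNAJC30, a mitochondrial protein that binds ATP synthase, had 26.87, 30.41 and 25.35 TPM in siAHCYL1 against 13.60, 15.19 and 12.71 TPM in siNC (0.94, SE 0.10, adjusted p = 8.19e-05). Exons of NUDT22 overlap DNAJC4 on the same strand and exons of BUD23 overlap DNAJC30 on the other, so part of these reads could belong to the neighbour. DNAJC21, a factor of ribosome maturation, had 16.90, 17.12 and 15.21 TPM in siAHCYL1 against 12.70, 11.87 and 10.28 TPM in siNC (0.47, adjusted p = 0.00577). DNAJC22 rose alike (0.46, adjusted p = 0.000691).

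DNAJC12, a co-chaperone of the aromatic amino acid hydroxylases, fell to 52.9%, with 16.77, 17.89 and 11.79 TPM in siAHCYL1 against 29.32, 29.69 and 28.80 TPM in siNC (-0.90, SE 0.14, adjusted p = 0.000613). DNAJC7, which binds both HSP70 and HSP90, had 141.69, 136.72 and 144.06 TPM in siAHCYL1 against 189.99, 167.16 and 163.32 TPM in siNC (-0.30, SE 0.071, adjusted p = 0.00699). DNAJC8, linked to pre-mRNA splicing, did not pass (-0.20, adjusted p = 0.0856), but was lower without siNC replicate 3 (adjusted p = 0.0428) or siAHCYL1 replicate 1 (adjusted p = 0.0248). The remaining DNAJC genes that did not pass had log2 fold changes between -0.24 (DNAJC18) and 0.22 (DNAJC27).

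Further folding factors outside the rule were read from lists of pathway genes, with no test of a list, and their shares can be read beside the 21.2% lower and 30.4% higher of all genes tested. Of 25 more HSP90 co-chaperones, 13 fell (52.0%) and 6 rose (24.0%), with a median log2 fold change of -0.17. The strongest calls were NUDCD3 (1.25) and NUDCD2 (0.54), of the NudC family, higher, and PIH1D1 (-0.59), of the R2TP complex, lower. Of 12 prefoldin subunits and chaperonin assistants, 3 fell and 2 rose (16.7%). PFDN4 had 116.78, 80.96 and 82.53 TPM in siAHCYL1 against 255.68, 216.57 and 200.80 TPM in siNC (-1.27, adjusted p = 8.5e-05). PFDN1 fell (-0.70) and UXT rose (0.54). Prefoldin passes actin and tubulin chains to TRiC. Of 7 tubulin folding cofactors, TBCEL (-0.60) and ARL2 (-0.35) fell and TBCD (0.24) rose.

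Mitochondrial folding partners and proteases gave 4 rises and 0 falls among 15, with a median of 0.08, and the 26.7% that rose is near the 30.4% of all genes. They included the inner membrane and matrix proteases SPG7 (0.80), LONP1 (0.65) and AFG3L2 (0.71), each at an adjusted p of at most 4.15e-05. Among 11 exchange and ribosome-linked factors, 4 fell (36.4%) and 3 rose (27.3%). ASNA1, which carries tail-anchored proteins to the ER, fell (-0.87), as did NACA (-0.35), a subunit of the complex that meets nascent chains at the ribosome, and SIL1, an exchange factor of the ER, rose (1.08). Of 12 degradation partners, 3 fell and 6 rose, led by HDAC6 (1.03), the deacetylase that carries aggregates along microtubules, and including the autophagy receptor NBR1 (0.47), both higher.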

How the data were processed

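RNA-seq was done on total RNA of 6 HMCB libraries, 3 siAHCYL1 and 3 siNC. Replicates are biological per the labels, but no separate cultures are named, and each p-value thus reflects only the variation among these 6 libraries, which may be technical. Per the labels' protocols the libraries were non-directional. The authors deposited 1 table of TPM. The submitters' processing notes name RSEM, STAR and GRCh38. Tool versions and the gene annotation were not given in the sources at hand. Columns starting with nc were read as siNC and those starting with si as siAHCYL1, the only other group.

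Genes that reached 1 TPM in 3 or more of the 6 libraries were tested on log2(TPM + 1) with limma 3.58.1 in R 4.3.3 (intensity trend, two-sided, Benjamini-Hochberg over all genes tested, threshold 0.05). Fold changes are on this scale, which understates changes of low genes, and run as siAHCYL1 over siNC. The procedure was tested on simulated data in which 200 genes changed, where 6844 were called here. Since that setting differs from these data, it does not show how many calls here are right. Intervals of 95% are unadjusted. Ratios were tested with an exact permutation test, except those called a description. Each library's TPM sums to the same total, so depth and counting error are unknown.

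Members, lists and tests were chosen with earlier results of these data known. Values per library are given for 23 members fixed by name and for the 3 largest called changes in each direction of each role group with a mean of at least 5 TPM. From each further list up to 3 called genes with the smallest adjusted p are named, except where a gene is not reported here. HSPA6, HSPB9 and HSBP1, other members named by their call, and the groups by place in the cell were taken after their values were seen. Annotation came from GENCODE 29 (GRCh38). Overlapping genes and pseudogenes are named for some members only. FKBP4, TCP1, TRAP1 and DNAJB1 are among further members whose exons overlap a gene on the opposite strand. The refits left out each library in turn or both replicate 1 libraries, took the replicate number as a block, dropped the trend for robust moderation, scaled by median of ratios or by quantiles, added 0.1 in place of 1, or set the filter at 5 TPM or none.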

Additional observations from a re-analysis of the deposited data

How the results depend on the processing

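Across 14 refits the count of lower members was 29 and ranged from 25 to 35, that of higher members was 12 and ranged from 9 to 15, and that of all changed genes was 6844, between 5566 and 7919 in the refits. Leaving out single libraries gave 25 to 31, 9 to 12 and 5566 to 6725. AHCYL1 passed in every refit. Of 41 member calls, 32 held in every refit that tested them (24 lower and 8 higher), and no called member changed direction. Of the 33 members that did not pass, 22 passed in no refit. Median-of-ratios scaling gave 34 lower and 10 higher members and quantile normalization 32 and 9. With median-of-ratios scaling HSPA9 (-0.20, adjusted p = 0.0364) and BAG4 (-0.31, adjusted p = 0.0197) passed, and DNAJB12 (adjusted p = 0.0584) and DNAJC14 (adjusted p = 0.0697) did not. For these changes of call the cause was not tested. No limit from depth could be given, since the table keeps none.

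The replicate numbers were not taken to pair the libraries, since the deviations of siAHCYL1 and siNC libraries with the same number correlated at 0.233, 0.001 and 0.154. With the replicate block 35 members were lower and 15 higher, against 29 and 12 without it. AHCYL1 passed with the block as well (-3.44). HSP90AA1 (adjusted p = 0.00135), HSPE1 (0.00173), CDC37 (0.00947), DNAJC8 (0.00938), BAG4 (0.0218) and HSPA9 (0.0261) then passed as lower, and HSPD1 (0.015), DNAJC19 (0.0319) and DNAJA1 (0.0399) as higher. Not every siAHCYL1 library correlated best with its own number.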
